A study of Mus musculus with 6 samples.

Results

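The Hox genes encode homeodomain transcription factors and lie in 4 clusters, A, B, C and D, within which a gene is named by its cluster letter and by a position number. The 38 Hox genes described here were taken by symbol, with no cutoff on their values, from a deposited table of 53677 genes. They were 10 from cluster A, 10 from cluster B, 9 from cluster C and 9 from cluster D. Their RNA was measured in sorted bone marrow cells of mice that express dnTCF4, a dominant-negative form of the transcription factor TCF4 (gene Tcf7l2), and of wild-type (WT) mice. The question put by the design is what blocking TCF-dependent transcription, the output of canonical Wnt signalling, changes in these cells.

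In the embryo, Hox genes are switched on in the order of their position in the cluster and give segments along the body axis their identity. In adult blood, stem and early progenitor cells carry mainly cluster A and cluster B transcripts, and HOXA9, acting with the cofactors MEIS1 and PBX, is known for sustaining progenitor growth and, when overexpressed, for driving leukaemia. Trithorax-group proteins such as MLL (gene Kmt2a) keep active Hox genes open, Polycomb-group proteins keep silent ones closed, and CDX factors and retinoic acid act upstream of Hox genes in development.

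Both groups came from C57BL/6J mice and consisted of cells labelled ST-HSC (short-term haematopoietic stem cells, a multipotent progenitor with limited self-renewal), sorted as negative for lineage markers, positive for Kit and CD48, and negative for CD150. The dnTCF4 group held 3 samples with the genotype label dnTCF4+/+, and the WT group held 3 samples with the label dnTCF4-/-. The labels speak of 3 mice of each genotype. They name neither Sca-1 in the gate nor the promoter or Cre that drives dnTCF4, so the cells in which the transgene was active are not known here. Of the genes behind the gate, Kit measured 74.8, 97.1 and 35.5 RPKM (reads divided by gene length and by library depth) in the dnTCF4 libraries, against 47.3, 83.7 and 61.7 RPKM in WT. Cd48 lay between 999.8 and 1415 RPKM in dnTCF4 and between 813.4 and 994.3 RPKM in WT, and Slamf1, which encodes CD150, stayed between 0.744 and 1.18 RPKM in all 6 libraries. Ly6a, which encodes Sca-1, lay between 76.8 and 164.2 RPKM in dnTCF4 and between 93.3 and 235.6 RPKM in WT, and Flt3, a receptor of multipotent progenitors, between 12.5 and 20.02 RPKM in dnTCF4 and between 11.9 and 21.4 RPKM in WT. Tcf7l2 measured 2.15, 1.99 and 2.80 RPKM in dnTCF4 and 1.56, 1.30 and 1.69 RPKM in WT. The table does not separate a transgene from the endogenous gene, and the Tcf7l2 row therefore does not show which libraries carry it.

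The libraries held 57384588 to 110895161 counted reads in dnTCF4 and 61766352 to 67707189 in WT. Immunoglobulin genes took 3.27% to 6.33% of the summed RPKM in dnTCF4 and 25.5% to 44.1% in WT, with the highest share in WT replicate 1. Deposited RPKM values of other genes are lowered by the share of reads that immunoglobulin genes take. That share can differ from the share of summed RPKM and is not given here. After scaling by median ratio size factors, which read the typical gene in place of the total, the median log2 fold change was -0.04 over the 11304 genes tested on that scale, against 0.14 over the 11326 tested on the deposited scale. Both scales are given for the Hox genes that averaged at least 1 RPKM, for the sums of clusters A and B and for the regulator lists. Summed markers of neutrophils measured 3073 to 7597 RPKM in dnTCF4 and 620.7 to 3121 RPKM in WT, and summed megakaryocyte markers 124.5 to 162.8 RPKM in dnTCF4 and 49.5 to 71.2 RPKM in WT. Summed B and plasma cell markers measured 401.4 to 797.4 RPKM in dnTCF4 and 2726 to 7998 RPKM in WT, and summed erythroblast markers 323.1 to 443 RPKM in dnTCF4 and 111.5 to 330.6 RPKM in WT. Their part in the Hox values below was not tested. In these bulk samples, fewer cells of a type and less RNA per cell cannot be told apart.

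Hox transcripts in these cells came mostly from cluster A, and within it from Hoxa9, Hoxa7, Hoxa10 and Hoxa5. The values convert back to whole reads, and the 38 genes together had 26145 reads in the 6 libraries, of which 24860 fell on cluster A, 1275 on cluster B, 9 on cluster C and 1 on cluster D. Of the 38 genes, 15 had no read in any library, 10 had between 1 and 6 reads in all, and 13 had at least 10. Only 4, all in cluster A, reached the mean of 1 RPKM over the 6 libraries that a gene needed to be tested with limma, and none of the 4 passed the test between the genotypes (adjusted p under 0.05). Across the table that test called 0.3% of genes, 5 of them higher and 29 lower in dnTCF4.

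**Figure D1:**
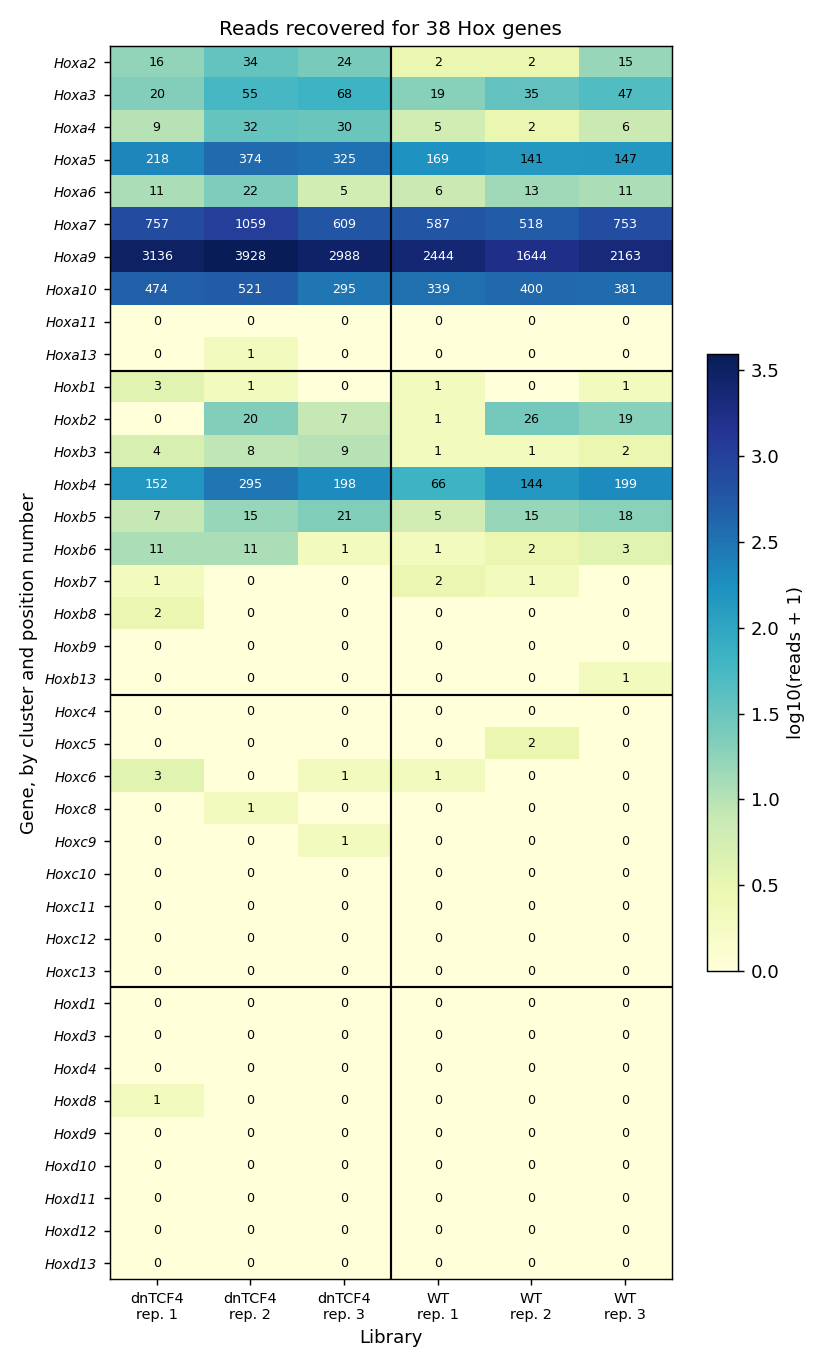
Reads recovered for each of the 38 Hox genes (rows, by cluster and position number) in each of the 6 libraries (columns, dnTCF4 left of WT); colour shows log10(reads + 1) and the figures in the cells are reads. Cluster A holds 24860 of the 26145 reads, and clusters C and D together are almost blank.

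Cluster A summed to 17.7, 13.6 and 18.5 RPKM in the dnTCF4 libraries, against 13.4, 11.3 and 13.0 RPKM in WT. Each dnTCF4 library thus lay above each WT library, with a mean of 16.6 ± 2.64 RPKM in dnTCF4 and 12.5 ± 1.13 RPKM in WT (SD, n = 3 each), a ratio of 1.32. The ratio depended on the scaling: it was 1.13 under median ratio scaling and 1.14 with the immunoglobulin genes left out, and under median ratio scaling the libraries of the genotypes overlapped (13.0 to 16.9 in dnTCF4, 12.2 to 16.0 in WT). The share of cluster A in all Hox RPKM, which no library-wide scaling can move, was 92.6% ± 1.12 in dnTCF4 and 92.6% ± 3.43 in WT (SD, n = 3 each).

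Hoxa9 was the most abundant Hox gene in every library. It is the homeodomain factor best known for its role in blood progenitors, and it lies on the minus strand at chr6:52223100-52231089 (GRCm38, GENCODE M21). Hoxa9 measured 8.91, 6.35 and 9.33 RPKM in dnTCF4 and 6.90, 4.77 and 5.73 RPKM in WT, from 1644 to 3928 reads per library. The lowest dnTCF4 library lay below the highest WT library, although the dnTCF4 value was the higher one at each of the 3 replicate numbers. The log2 fold change, on the scale of log2(RPKM + 1), was 0.43 (SE 0.21, 95% interval -0.07 to 0.93, limma adjusted p = 0.58), and 0.24 under median ratio scaling. With the replicate number as a block in the limma fit, the SE was 0.15 and the 95% interval 0.04 to 0.82. The unadjusted p of that fit was 0.036 and its adjusted p 0.31. An unadjusted p under 0.05 was reached there by 14.9% of all tested genes. The mean level of Hoxa9 stood above that of 54.6% of the tested genes, so the leading Hox gene was of middling abundance in these cells. Hoxa9 made up 45.6% ± 2.31 of the Hox RPKM in dnTCF4 and 42.7% ± 6.12 in WT (SD, n = 3 each).

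Hoxa7, the neighbour of Hoxa9, came second. It lies on the minus strand at chr6:52214491-52221854 and measured 4.17, 3.32 and 3.69 RPKM in dnTCF4 and 3.21, 2.92 and 3.87 RPKM in WT. The genotypes overlapped over most of their range. The log2 fold change was 0.13 (SE 0.17, limma adjusted p = 0.77) on the deposited scale and turned to -0.04 under median ratio scaling. Of the exonic bases of Hoxa7, 20.4% are shared with the antisense gene Hoxaas3, and since the library chemistry does not mark strand, reads there cannot be given to one of the pair.

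Hoxa10, the next gene beyond Hoxa9 and a factor also known from blood progenitors, lies on the minus strand at chr6:52231197-52240854. It measured 2.30, 1.44 and 1.57 RPKM in dnTCF4 and 1.63, 1.98 and 1.72 RPKM in WT. dnTCF4 replicate 1 was the highest and the other two dnTCF4 libraries were the lowest of the 6. Its log2 fold change was -0.02 (SE 0.17, 95% interval -0.42 to 0.39, limma adjusted p = 0.97), and leaving out 1 library at a time moved it between -0.15 and 0.07. It was -0.15 under median ratio scaling.

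Hoxa5, which lies on the minus strand at chr6:52201754-52204587 and shares no exonic bases with another gene, was the one tested Hox gene whose genotypes did not overlap. It measured 1.84, 1.80 and 3.02 RPKM in dnTCF4 and 1.42, 1.22 and 1.16 RPKM in WT, from 141 to 374 reads per library. The dnTCF4 values lay above the WT values throughout, and dnTCF4 replicate 3 stood well above the other two. The log2 fold change was 0.49 (SE 0.19, 95% interval 0.05 to 0.93); its unadjusted p was 0.034 and its limma adjusted p over all genes 0.48. An unadjusted p under 0.05 with a higher dnTCF4 value was reached by 1 of the 4 tested Hox genes and by 7.52% of all tested genes. Without dnTCF4 replicate 3 the log2 fold change of Hoxa5 was 0.32 (limma adjusted p = 0.71). Under median ratio scaling it was 0.35 (95% interval -0.06 to 0.75), with an unadjusted limma p of 0.083. Summed neutrophil and megakaryocyte markers were also highest in dnTCF4 replicate 3, summed erythroblast markers in dnTCF4 replicate 2, and summed B and plasma cell markers in WT replicate 1. The neutrophil sum was higher in WT replicate 3 (3121 RPKM), where Hoxa5 was lowest, than in dnTCF4 replicate 1 (3073 RPKM). The megakaryocyte sum did not overlap between genotypes, with 137.7, 124.5 and 162.8 RPKM in dnTCF4 and 55.4, 71.2 and 49.5 RPKM in WT. Like Hoxa5 it was lowest in WT replicate 3, but among WT libraries it was highest in replicate 2 and Hoxa5 in replicate 1. The part of these cells in the Hoxa5 value was not tested.

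**Figure D2:**
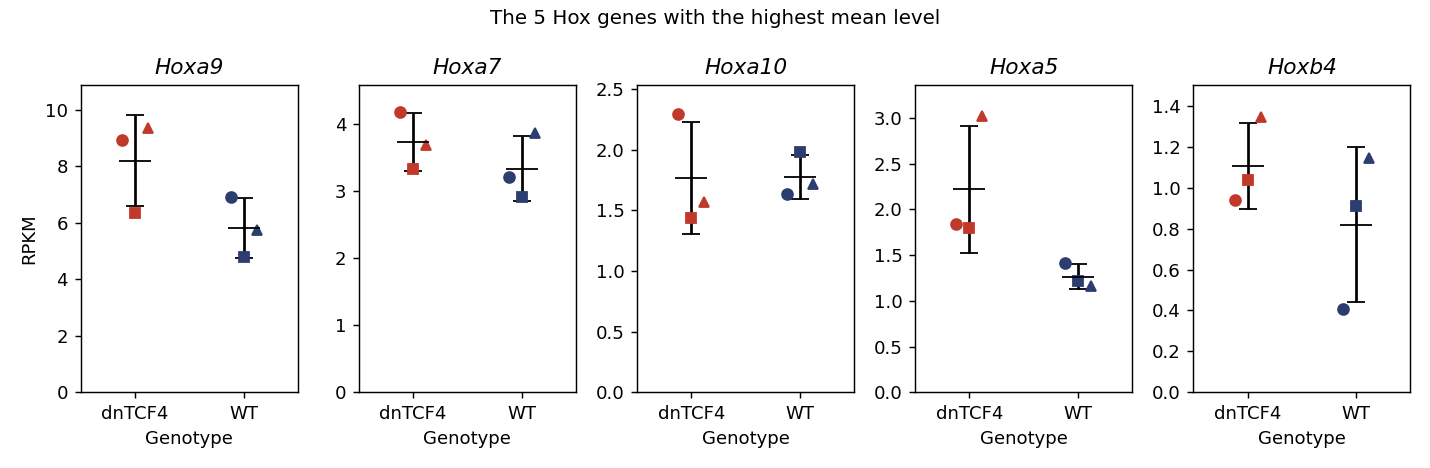
RPKM of the 5 Hox genes with the highest mean level in dnTCF4 (left, red) and WT (right, blue); points are libraries (circle, square and triangle for replicates 1, 2 and 3), bars the mean ± SD of 3. The genotypes are apart for Hoxa5 only, where the lowest dnTCF4 library measured 1.80 RPKM and the highest WT library 1.42 RPKM.

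The promoters of the genes that carry the Hox signal were set beside those that hold TCF letters. RefSeq start sites on GRCm38.p6 were found for 22 of the 38 genes, with 24 promoters, and the 250 bases upstream were searched on both strands for the TCF/LEF letters CTTTGAA or CTTTGAT or CTTTGTA or CTTTGTT. A match occurred in 3 of the 24 Hox promoters (12.5%), against 14.8% of 32851 promoters of the same length in the RefSeq table. The 3 were those of Hoxd8, with 2 matches, Hoxd12 and Hoxa11, and these genes had 1, 0 and 0 reads in the 6 libraries. The windows of Hoxa9, Hoxa5 and Hoxb4 held none of these letters. A composite PBX-HOX motif, TGATTNAT, occurred in 2 of the 24 (8.33%), at Hoxa2 and at 1 start of Hoxd11, against 2.82% of all promoters. A match describes the letters and shows no binding. The windows below are printed 5′ to 3′ on the strand of the gene, with TCF/LEF matches in capitals, and sequence credited to RefSeq. Hoxa9 and Hoxb4 are shown as the most abundant genes of clusters A and B; Hoxa5 and Hoxd8 were picked after their values were seen, as the tested gene whose genotypes did not overlap and the promoter with 2 matches. The windows are at chr6:52227371-52227620 for Hoxa9 (minus strand, inside an intron of the longer GENCODE model), chr6:52204588-52204837 for Hoxa5 (minus), chr11:96318017-96318266 for Hoxb4 (plus) and chr2:74704365-74704614 for Hoxd8 (plus), and none overlaps an exon in GENCODE M21.
Hoxa9: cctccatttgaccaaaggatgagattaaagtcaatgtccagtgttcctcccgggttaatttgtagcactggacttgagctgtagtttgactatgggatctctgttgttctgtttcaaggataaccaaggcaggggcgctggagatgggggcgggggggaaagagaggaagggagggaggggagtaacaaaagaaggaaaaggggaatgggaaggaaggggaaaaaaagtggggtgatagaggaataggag
Hoxa5: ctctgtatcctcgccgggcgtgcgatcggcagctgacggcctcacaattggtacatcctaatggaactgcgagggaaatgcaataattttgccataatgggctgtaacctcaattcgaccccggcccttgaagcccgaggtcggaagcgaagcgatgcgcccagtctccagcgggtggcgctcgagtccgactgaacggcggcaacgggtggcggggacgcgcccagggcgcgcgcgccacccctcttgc
Hoxb4: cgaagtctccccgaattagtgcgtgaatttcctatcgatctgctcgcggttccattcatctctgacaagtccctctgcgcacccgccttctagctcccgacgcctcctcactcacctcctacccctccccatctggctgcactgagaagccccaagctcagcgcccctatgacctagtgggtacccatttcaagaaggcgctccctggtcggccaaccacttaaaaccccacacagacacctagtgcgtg
Hoxd8: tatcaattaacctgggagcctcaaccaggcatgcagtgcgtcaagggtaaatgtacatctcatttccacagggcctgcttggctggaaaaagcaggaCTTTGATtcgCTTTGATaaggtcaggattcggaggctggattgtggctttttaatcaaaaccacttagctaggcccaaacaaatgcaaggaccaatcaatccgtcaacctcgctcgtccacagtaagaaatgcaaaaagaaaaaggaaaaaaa

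The remaining cluster A genes were read at a low level, and 2 of them, Hoxa2 and Hoxa4, had mostly dnTCF4 reads. Hoxa2, known for its role in the hindbrain and the second branchial arch, had 16, 34 and 24 reads in dnTCF4 and 2, 2 and 15 in WT. That is 0.143, 0.173 and 0.236 RPKM in dnTCF4, against 0.0177, 0.0182 and 0.125 RPKM in WT. All 3 dnTCF4 libraries lay above all WT libraries, though WT replicate 3 came close to dnTCF4 replicate 1. Hoxa4, the neighbour of Hoxa5, had 9, 32 and 30 reads in dnTCF4 and 5, 2 and 6 in WT, or 0.0895, 0.181 and 0.328 RPKM in dnTCF4 and 0.0494, 0.0203 and 0.0556 RPKM in WT. These groups did not overlap either.

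Genes at this level are under the filter of the limma test, so the reads were tested with voom, which weights each value by its precision, over the 21163 genes with at least 10 reads in all. This test was added after the data were seen. It used the depth behind the deposited scale and was not run under median ratio scaling. Its median log2 fold change over all genes was 0.19. Hoxa2 had a log2 fold change of 2.15 (SE 0.78, unadjusted p = 0.022, voom adjusted p = 0.49) and Hoxa4 one of 2.02 (SE 0.79, unadjusted p = 0.030, voom adjusted p = 0.53). Pooled over the libraries and divided by depth, the reads of Hoxa2 were 3.25 times (95% interval 1.94 to 5.70) and those of Hoxa4 4.56 times (2.50 to 8.97) as frequent in dnTCF4; these intervals cover counting error only and leave out the spread between mice. A list of 7 markers of bone and stromal cells, which use other Hox genes than blood, was also higher in dnTCF4. It summed to 2.08, 0.871 and 0.545 RPKM in dnTCF4 and 0.350, 0.139 and 0.0688 RPKM in WT. Of the 7, 6 were higher in mean in dnTCF4, none reached a mean of 1 RPKM and Twist1 was at 0 in every library. Within a genotype the order differed. The sum was highest in dnTCF4 replicate 1, where Hoxa2 and Hoxa4 were lowest among the dnTCF4 libraries. In WT the sum was lowest in replicate 3, where both genes were highest. The part of these markers in the Hoxa2 and Hoxa4 values was not tested. Hoxa4 shares 16.0% of its exonic bases with an antisense gene, Gm29430, and Hoxa2 shares 267 exonic bases with Gm28308 on the same strand, which is listed at 0.

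Hoxa3 and Hoxa6 showed no such split. Hoxa3 had 20, 55 and 68 reads in dnTCF4 and 19, 35 and 47 in WT, with a voom log2 fold change of 0.17 (SE 0.58). Hoxa6 had 11, 22 and 5 reads in dnTCF4 and 6, 13 and 11 in WT, with 0.03 (SE 0.64). At the far end of the cluster, Hoxa11 had no read and Hoxa13 a single one, in dnTCF4 replicate 2. Hoxa11 and Hoxa13 are genes of limb and urogenital patterning.

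**Figure D3:**
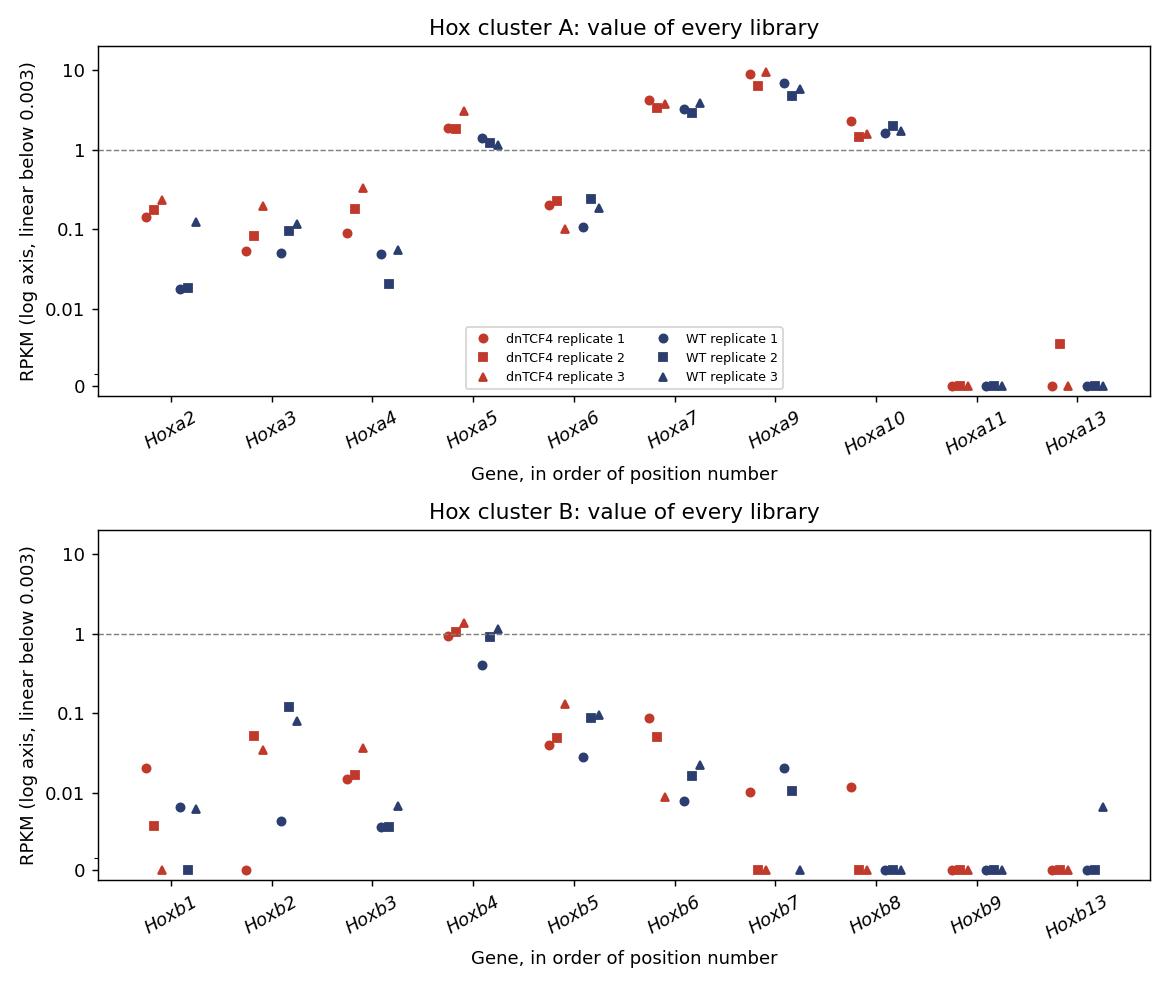
RPKM of every library (log axis, linear below 0.003) for the cluster A genes (top) and cluster B genes (bottom) in order of position number, dnTCF4 in red left of WT in blue; symbols give the replicate and the dashed line marks 1 RPKM. In cluster A the level peaks at Hoxa9 and drops to 0 at Hoxa11, and in cluster B only Hoxb4 comes near the line.

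In cluster B, Hoxb4 stood alone. Hoxb4, known for expanding blood stem cells when overexpressed, lies on the plus strand at chr11:96318267-96321638 and had 1054 of the 1275 reads of the cluster. It measured 0.939, 1.04 and 1.34 RPKM in dnTCF4 and 0.405, 0.909 and 1.15 RPKM in WT. WT replicate 1 was the lowest library, WT replicate 2 lay just under the dnTCF4 range and WT replicate 3 within it. At each of the 3 replicate numbers, which were taken to pair the samples, the dnTCF4 library was the higher one. Its mean of 0.963 RPKM missed the limma filter; voom gave a log2 fold change of 0.53 (SE 0.41, unadjusted p = 0.23, voom adjusted p = 0.75), and with the replicate block an unadjusted p of 0.15 and a voom adjusted p of 0.51. Cluster B as a whole summed to 1.13, 1.21 and 1.56 RPKM in dnTCF4 and 0.477, 1.15 and 1.36 RPKM in WT, a ratio of 1.30, or 1.15 under median ratio scaling.

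Of the other cluster B genes, Hoxb3 had few but mostly dnTCF4 reads: 4, 8 and 9 in dnTCF4 and 1, 1 and 2 in WT. It passed the filter of 10 reads only through the dnTCF4 libraries, and 52.9% of its exonic bases are shared with the antisense gene Hoxb3os without a mark of strand, so those reads cannot be given to one of the pair. No test is given for it. Hoxb2, which shares 27.3% of its exonic bases with Hoxb3os, leaned the other way, with 0, 20 and 7 reads in dnTCF4 and 1, 26 and 19 in WT, and a log2 fold change of -1.13 (SE 1.46). It was the lower one in dnTCF4 at each of the 3 replicate numbers. With the replicate block its voom log2 fold change was -1.22 (SE 0.59, unadjusted p = 0.073, voom adjusted p = 0.42). Hoxb5, a gene known as a mark of long-term stem cells in mouse marrow, had 7, 15 and 21 reads in dnTCF4 and 5, 15 and 18 in WT, with a log2 fold change of -0.05 (SE 0.72). Hoxb6 had 11, 11 and 1 reads in dnTCF4 and 1, 2 and 3 in WT; it too passed the filter through dnTCF4 alone, and its groups overlapped. Hoxb1 had 6 reads, Hoxb7 4, Hoxb8 2 and Hoxb13 1 in all libraries together, and Hoxb9 none.

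Clusters C and D were close to silent at this depth. Cluster C had 6 reads in dnTCF4 and 3 in WT: 5 on Hoxc6, 2 on Hoxc5 and 1 each on Hoxc8 and Hoxc9. Hoxc4, Hoxc10, Hoxc11, Hoxc12 and Hoxc13 had none. Cluster D had a single read, on Hoxd8 in dnTCF4 replicate 1, and Hoxd1, Hoxd3, Hoxd4, Hoxd9, Hoxd10, Hoxd11, Hoxd12 and Hoxd13 had none. For the 15 genes at 0 in the whole series, which add Hoxa11 and Hoxb9 to these, a limit of 3 reads per library allows 0.00642 to 0.0507 RPKM, depending on gene length and depth. Differences between the genotypes below that were not detectable here. These limits use the full exonic length of each gene. Hoxd3 and Hoxd4 share 53.1% and 39.1% of their exonic bases with Gm28230 on the same strand. Hoxa11 shares 35.0% with the antisense gene Hoxa11os. Reads in shared bases cannot be given to one gene, so the limits of such genes are looser than stated.

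Read by position number across the clusters, the signal was narrow. Position 9 held 16304 reads, position 7 held 4287, position 10 held 2410, position 5 held 1457 and position 4 held 1138. Positions 3, 2 and 6 followed with 269, 166 and 102 reads, and positions 1 and 8 had 6 and 4. The 9 genes of positions 11 to 13 had 2 reads between them. At each of positions 4, 5, 7, 9 and 10 a single gene supplied nearly all of the reads: Hoxb4, Hoxa5, Hoxa7, Hoxa9 and Hoxa10. Position 5 was the one among these where the summed level did not overlap between genotypes, with 1.88, 1.85 and 3.15 RPKM in dnTCF4 and 1.45, 1.31 and 1.25 RPKM in WT.

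Of the 13 genes with at least 10 reads, 2 (Hoxb3 and Hoxb6) reached that number through dnTCF4 alone and had to lean that way. Among the other 11, 3 (Hoxa2, Hoxa4 and Hoxa5) lay higher in every dnTCF4 library than in every WT library, and none lay lower. Of all 21163 genes with at least 10 reads, 13% did so upward and 2.83% downward on the deposited scale. These 21163 genes still include those that reached 10 reads through a single genotype. Their filter is therefore looser than that of the 11, here and in the shares below. Under median ratio scaling the count for the 11 was again 3 and 0, against 6.47% upward and 5.6% downward. Voom gave an unadjusted p under 0.05 with a higher dnTCF4 value to the same 3 of the 11 and to 6.36% of all genes; it called none of the 11 and 0.0992% of all genes after adjustment. With the replicate block, added after the data were seen, 4 of the 11 (Hoxa9 as well) had such a p, against 10.5% of all genes, and again none was called, against 0.709%. The voom log2 fold change was above 0 for 8 of the 11, with a median of 0.17, beside 0.19 over all genes. Of the 4 genes tested with limma, 3 had a value above 0, with a median of 0.28 beside 0.14 over all genes, and 2 of 4 under median ratio scaling, with a median of 0.10 beside -0.04. The library with the highest RPKM was dnTCF4 replicate 3 for 8 of the 13 genes, dnTCF4 replicate 1 for 3 and WT replicate 2 for 2. These 13 include Hoxb3 (dnTCF4 replicate 3) and Hoxb6 (dnTCF4 replicate 1), which had to lean toward dnTCF4. The same count was not made over all genes, so it is not read as a trait of the Hox genes.

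**Figure D4:**
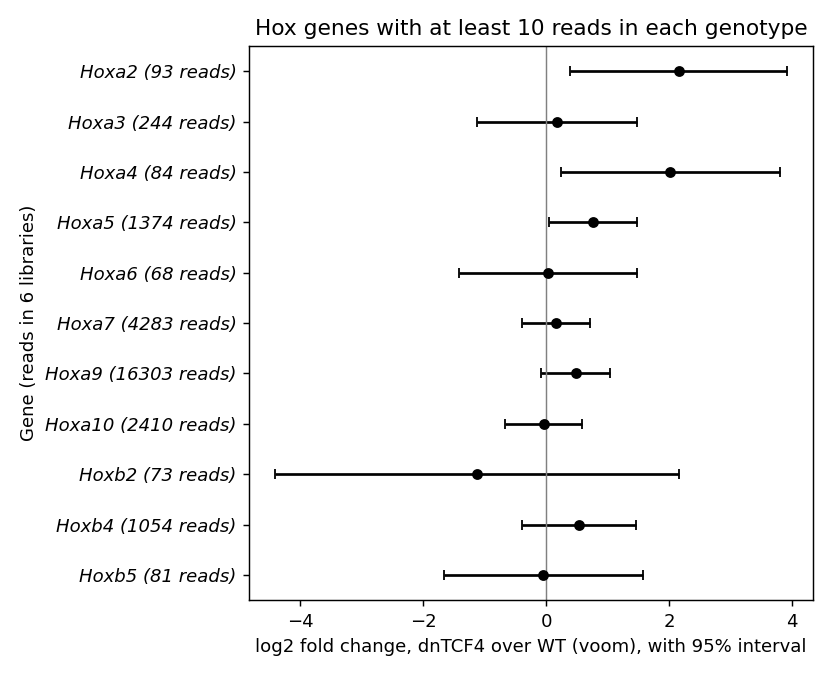
Log2 fold change of dnTCF4 over WT from voom on recovered reads, with 95% intervals, for the 11 Hox genes with at least 10 reads in each genotype (reads over the 6 libraries in brackets), in cluster and position order. The intervals of Hoxa2, Hoxa4 and Hoxa5 lie above 0 before adjustment; those of Hoxa7 and Hoxa10 are narrower and span 0.

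Ratios between Hox genes of the same library do not depend on scaling. Hoxa9 over Hoxa10 was 3.88, 4.42 and 5.94 in dnTCF4 and 4.22, 2.41 and 3.33 in WT. Hoxa5 over Hoxa10 was 0.801, 1.25 and 1.92 in dnTCF4 and 0.869, 0.614 and 0.672 in WT. Hoxa9 over Hoxa7 was 2.14, 1.91 and 2.53 in dnTCF4 and 2.15, 1.64 and 1.48 in WT. None of these separated the genotypes: the two-sided exact permutation p-values were 0.2, 0.2 and 0.3, each 0.4 after Benjamini-Hochberg adjustment over the 4 ratios computed, in a design whose smallest possible p is 0.1. The fourth, Hoxa9 over its cofactor gene Meis1, was 0.201, 0.125 and 0.306 in dnTCF4 and 0.196, 0.134 and 0.152 in WT (exact permutation p = 0.6, adjusted 0.6).

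The partners and regulators of the Hox genes showed no call either. Of 87 listed, 84 were in the table and 51 were tested; limma called none, and 39 of the 51 had a value above 0 on the deposited scale but 24 under median ratio scaling, with medians of 0.18 and 0.00, beside 0.14 and -0.04 over all genes. Of the TALE cofactors, homeodomain proteins that bind DNA together with HOX proteins, 5 of 9 were tested, with 4 above 0 and 3 under median ratio scaling. Meis1 had the highest level, at 44.4, 50.9 and 30.5 RPKM in dnTCF4 and 35.2, 35.6 and 37.7 RPKM in WT. WT libraries were close together and dnTCF4 libraries fell on either side of them (log2 fold change 0.18, limma adjusted p = 0.76, and -0.03 under median ratio scaling). Pbx3, under the filter, measured 0.859, 0.850 and 1.15 RPKM in dnTCF4 and 0.402, 0.345 and 0.701 RPKM in WT, with a voom log2 fold change of 1.02 (unadjusted p = 0.013, voom adjusted p = 0.43); it was singled out after its values were seen. Pbx2 and Pbx4 had log2 fold changes of 0.19 and 0.17 and Pknox1, whose product pairs with PBX proteins, one of -0.29 (limma adjusted p = 0.72, 0.74 and 0.73).

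On the trithorax side all 18 listed genes were tested and 15 were above 0, but 8 under median ratio scaling. Kmt2a, which encodes MLL, averaged 4.32 ± 0.719 RPKM in dnTCF4 and 3.73 ± 1.07 RPKM in WT (SD, n = 3 each; log2 fold change 0.19, limma adjusted p = 0.75, and 0.016 under median ratio scaling). Men1, which encodes its partner menin, averaged 1.87 ± 0.191 RPKM in dnTCF4 and 1.78 ± 0.386 RPKM in WT (log2 fold change 0.055, limma adjusted p = 0.89, and -0.085 under median ratio scaling). Mllt3, which encodes the MLL fusion partner AF9, was the only regulator with an unadjusted limma p under 0.05 on the deposited scale. Such a p was thus reached by 1 of the 51 tested regulators, beside 9.62% of all tested genes. Mllt3 averaged 1.97 ± 0.492 RPKM in dnTCF4 and 1.14 ± 0.355 RPKM in WT (SD, n = 3 each). Its log2 fold change was 0.48, with a limma adjusted p of 0.51. Under median ratio scaling its log2 fold change was 0.35 and its unadjusted limma p 0.058. Kat6a, Aff1 and Ing5 had log2 fold changes of 0.32, 0.29 and 0.23, with limma adjusted p-values of 0.67, 0.70 and 0.70.

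On the Polycomb side 21 of 26 listed genes were tested, 15 of them above 0 on the deposited scale and 10 under median ratio scaling. Ezh1 and Ezh2, the alternative methyltransferases of the complex that marks silent Hox genes, averaged 16.8 ± 2.83 and 15.3 ± 3.70 RPKM in dnTCF4 and 12.4 ± 0.0819 and 12.1 ± 1.78 RPKM in WT (SD, n = 3 each). Their log2 fold changes were 0.39 and 0.31, with limma adjusted p-values of 0.55 and 0.69, and 0.19 and 0.10 under median ratio scaling. Bmi1, a subunit of the other main complex and a gene stem cells need for self-renewal, averaged 5.95 ± 1.68 RPKM in dnTCF4 and 5.17 ± 0.720 RPKM in WT (log2 fold change 0.15, limma adjusted p = 0.78, and -0.03 under median ratio scaling). Pcgf1 and Cbx2 had log2 fold changes of 0.27 and 0.19, with limma adjusted p-values of 0.68 and 0.70.

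Of the developmental inputs, Cdx1, Cdx2 and Cdx4 were listed at 0 in all 6 libraries. Of 6 genes of retinoic acid signalling only the receptor gene Rxrb passed the filter. It averaged 7.17 ± 2.00 RPKM in dnTCF4 and 8.39 ± 1.70 RPKM in WT (SD, n = 3 each), with a log2 fold change of -0.22 (limma adjusted p = 0.75) and -0.41 under median ratio scaling. Of 8 other homeobox genes of blood progenitors 6 were tested, 5 of them above 0 and 3 under median ratio scaling. Hhex averaged 17.0 ± 3.46 RPKM in dnTCF4 and 12.4 ± 1.86 RPKM in WT (SD, n = 3 each; limma adjusted p = 0.59), and Hopx and Zeb2 had log2 fold changes of 0.30 and 0.18 (limma adjusted p = 0.74 and 0.80). Under median ratio scaling Hopx had 0.17 and Zeb2 stood just under 0.

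**Figure D5:**
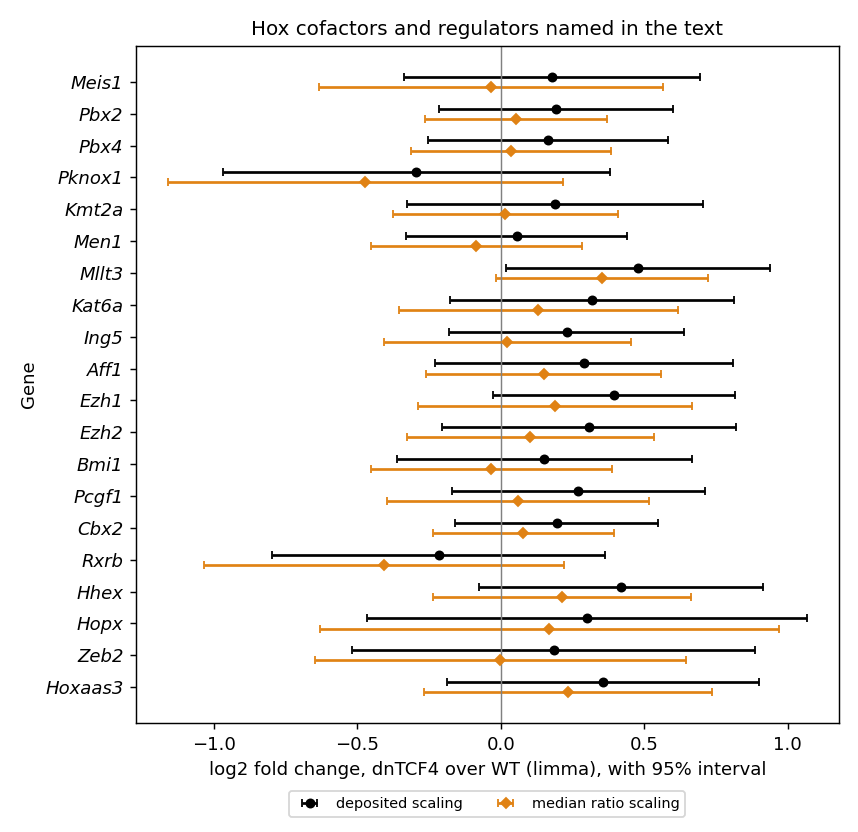
Log2 fold change of dnTCF4 over WT from limma, with 95% intervals, for 20 tested cofactors and regulators of the Hox genes, on the deposited scale (black) and under median ratio scaling (orange). Most points move left under median ratio scaling; the deposited interval lies above 0 for Mllt3 alone.

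Among the non-coding RNAs of the clusters, 15 of 18 listed were in the table and Hoxaas3, the antisense gene that overlaps Hoxa7, was the one that passed the filter. It measured 2.06, 0.930 and 2.05 RPKM in dnTCF4 and 0.731, 1.38 and 1.09 RPKM in WT, and the groups overlapped (log2 fold change 0.36, limma adjusted p = 0.66). Hoxb5os measured 0.957, 0.726 and 0.275 RPKM in dnTCF4 and 0.272, 1.49 and 1.27 RPKM in WT. Hoxb3os measured 0.140, 0.337 and 0.477 RPKM in dnTCF4 and 0.157, 0.247 and 0.162 RPKM in WT. Hotairm1, transcribed at the start of cluster A, had 1, 7 and 7 reads in dnTCF4 and 0, 1 and 1 in WT. It reached 10 reads only through the dnTCF4 libraries. Its groups overlapped, with 0.0155 RPKM in dnTCF4 replicate 1 and 0.0158 RPKM in WT replicate 2. The gene of miR-196b was listed at 0 in all 6 libraries. Its 85 bases lie in an exon of the Hoxa9 model on the same strand, where reads cannot be given to one of the pair. The libraries were also made from poly(A) RNA, so this 0 does not show whether miR-196b was expressed.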

How the data were processed

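RNA was measured in 6 libraries, 3 of each genotype. Per the labels' protocols, poly(A) RNA was amplified with SMART-Seq v4 and turned into paired-end libraries with Nextera XT, a chemistry that does not mark strand. The authors deposited these data as RPKM, 1 value for each gene and library. The tools STAR, featureCounts, DESeq2 and edgeR, and builds GRCm38 and mm10, are named per the submitters' processing notes, with no role or version given. RPKM times union exon length (GENCODE M21) came out at whole multiples of a step, within 0.02 of a read, for 95.6% to 96.1% of genes checked per library, which gave the reads and the depth. A count of 0 was taken to allow 3 reads per library, and such limits cover counting error only. Libraries of a genotype differed far beyond sampling noise (lowest chi-square per gene 142), so each was counted once.

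Genes averaging at least 1 RPKM were tested, with genotype as the only term, by limma 3.58.1 (R 4.3.3; empirical Bayes with trend, two-sided) on log2(RPKM + 1), adjusted by Benjamini-Hochberg over all genes tested. Fold changes are dnTCF4 over WT and understate low genes. Voom in limma was run on recovered reads. Scripts were tested on simulated data. Figures were drawn with matplotlib 3.10.9. Samples with the same replicate number deviated together (correlations of 0.17, 0.35 and 0.30 for numbers 1, 2 and 3, against -0.33 to 0.09 for other pairs), so the numbers were taken to pair the samples, from the data and not from a label. Values were first centred on the mean of each genotype, so higher matched correlations push those of other pairs down. The contrast is thus partly built in, and the pairing stays an assumption. The replicate block changed no call of a Hox gene or regulator; it called 49 genes of the table in place of 34. Other scalings, filters and pseudocounts were tried as well.

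Members were taken by symbol, with no cutoff on their values. The choice of members, lists and tests was still made with earlier results of these data known. Genes averaging at least 1 RPKM were described with every library, others by cluster, by name from 0.1 RPKM on or where their reads singled them out. Of each regulator list, up to 4 tested genes with the smallest p were named, and Meis1, Kmt2a, Men1, Cdx4, Bmi1 and Ezh2 in any case; a gene that this rule also covers is not reported here.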

Additional observations from a re-analysis of the deposited data

How the results depend on the processing

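The number of called Hox genes and of called cofactors and regulators was 0 under every alternative run: median ratio scaling, immunoglobulin genes left out, pseudocount 0.1, no filter, a mean of at least 5 RPKM (which leaves Hoxa9 alone), the replicate block, each library left out in turn, replicates 2 and 3 only, and voom on the recovered reads, with and without the replicate block. Over the whole table the count was 34 as reported, 26 under median ratio scaling, 29 with pseudocount 0.1, 24 at a mean of at least 5 RPKM and 49 with the replicate block. It was 0 with the immunoglobulin genes left out (601 genes had an unadjusted limma p under 0.05), 6 with no filter, 10 with replicates 2 and 3 only, 14 with voom, and 21 with voom on genes with at least 10 reads, an alternative chosen after seeing the data, as was the same test with the replicate block, which called 150. Without 1 library at a time it lay between 7, without WT replicate 1, and 34. Hoxa7 turned to -0.041 under median ratio scaling and to -0.030 with the immunoglobulin genes left out. Hoxa10 lay between -0.15 and 0.070 without 1 library at a time, above 0 without WT replicate 2 (0.04), dnTCF4 replicate 2 (0.070) or dnTCF4 replicate 3 (0.03). Hoxa5 was above 0 in all 15 settings run (0.32 to 0.78) and Hoxa9 in all 16 (0.24 to 0.59). The log2 ratio of summed cluster A RPKM was 0.40 as reported, 0.17 under median ratio scaling and 0.19 with the immunoglobulin genes left out, and lay between 0.32 and 0.53 without 1 library at a time; that of cluster B lay between 0.05 and 0.68. The cause of these shifts was not tested. With 3 libraries a genotype and 1 to 93 reads for most of the lower Hox genes, depth limits what can be said of them, and clusters C and D, with 10 reads in all, allow no comparison.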
